A study of Mus musculus with 26 samples.

Results

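Stab1, Stab2, Lyve1, Clec4g, Pecam1, Cdh5, Kdr, Plvap, Cd34 and Eng are genes of liver endothelium, and their levels were followed in every group of a bulk RNA sequencing series of mouse liver tumours. They were chosen by name, 4 as genes of sinusoidal endothelium (Stab1, Stab2, Lyve1, Clec4g), 4 as genes of endothelium in most vessels (Pecam1, Cdh5, Kdr, Eng) and 2 as genes of capillary or continuous endothelium (Plvap, Cd34). All 10 were found among the 35976 entries of the count table. The series holds 26 libraries in 4 groups. Cyp1a2_CA tumours (10 libraries, 9 animal numbers) carried Cyp1a2-CreERT2 with Ctnnb1(ex3)fl/+ and Arid2fl/fl, and Gls2_CA tumours (9 libraries, 5 animal numbers) carried Gls2-CreERT2 with the same floxed alleles. Cyp1a2_C is 1 tumour library with Cyp1a2-CreERT2 and Ctnnb1(ex3)fl/+ alone. The 6 WT livers came from mice given AAV-Cre, a viral vector that carries Cre recombinase, with no floxed allele in the label. All tumour mice were a mix of C57BL/6J and Swiss Webster, received tamoxifen at postnatal day 28 and were followed for 6 to 12 months. WT mice were C57BL/6J and were kept on normal chow for up to 12 months. CreERT2 stood under the promoter of a gene of pericentral (Cyp1a2) or periportal (Gls2) hepatocytes, so Cre was directed to hepatocytes.

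Liver sinusoids are lined by a thin endothelium with open pores and no continuous basement membrane, which takes up waste molecules from blood through scavenger and lectin receptors. In chronic liver disease and in liver tumours this endothelium can lose pores and receptors and take on features of ordinary capillaries, a change known as capillarization. Endothelial genes of most vessels are controlled in part by transcription factors of the ETS family, which bind the core letters GGAA, and GATA4 is known as a factor of sinusoidal endothelium.

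Promoter sequences were available from RefSeq on GRCm38.p6, the assembly known as mm10, for 6 of the 10 genes (Stab1, Stab2, Clec4g, Kdr, Cd34, Eng). Of these, 4 are printed so that 3 genes that fell in both tumour groups can be read beside Eng, which did not pass the test in either. Each runs 5′ to 3′ on the gene's strand and ends at the RefSeq start or at the first annotated exon base before it. Capitals mark GGAA or its reverse complement TTCC, and in Clec4g also TTTATA, the reverse complement of TATAAA.
Stab2 (chr10:87008026-87008192, minus strand): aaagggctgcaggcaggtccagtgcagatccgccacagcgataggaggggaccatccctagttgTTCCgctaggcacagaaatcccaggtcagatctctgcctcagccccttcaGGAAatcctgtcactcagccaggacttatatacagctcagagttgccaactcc
Clec4g (chr8:3720652-3720901, minus strand): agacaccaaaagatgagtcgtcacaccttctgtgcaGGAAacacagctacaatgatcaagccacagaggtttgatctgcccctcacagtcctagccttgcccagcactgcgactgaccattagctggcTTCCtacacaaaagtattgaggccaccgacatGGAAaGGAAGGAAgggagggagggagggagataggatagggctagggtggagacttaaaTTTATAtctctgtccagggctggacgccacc
Kdr (chr5:75978459-75978705, minus strand): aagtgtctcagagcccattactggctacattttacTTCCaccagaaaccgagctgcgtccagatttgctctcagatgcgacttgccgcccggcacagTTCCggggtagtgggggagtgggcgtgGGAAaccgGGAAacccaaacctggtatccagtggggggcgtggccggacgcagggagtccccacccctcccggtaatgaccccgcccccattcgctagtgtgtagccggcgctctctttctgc
Eng (chr2:32646345-32646594, plus strand): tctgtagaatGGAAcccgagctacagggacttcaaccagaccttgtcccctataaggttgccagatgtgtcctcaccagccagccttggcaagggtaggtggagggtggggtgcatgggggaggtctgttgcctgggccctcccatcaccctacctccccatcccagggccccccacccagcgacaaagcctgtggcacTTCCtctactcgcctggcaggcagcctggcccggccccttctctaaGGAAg
The GGAA core, counted on both strands, occurred 2 times before Stab2, 5 times before Clec4g, 4 times before Kdr and 3 times before Eng. Windows of the same length before all 32851 RefSeq starts held at least as many in 56.5%, 18.0%, 32.5% and 54.7% of cases, so these counts were ordinary for mouse promoters. Stab1 had 6 (at least as many in 8.7% of windows) and Cd34 had 5 (17.6%). The letters AGATAA, a common GATA motif, were found on neither strand in any of the 6 windows. Of all windows of these lengths, 7.2% to 10% held them. Other forms of the GATA motif were not searched for. TATAAA was found, on the opposite strand, in the Clec4g window only, and 12.4% of all windows of that length held it on either strand.

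Library totals were 13486530 to 16975288 counts in WT, 37051941 to 49254470 in Cyp1a2_CA, 36992043 to 42865787 in Gls2_CA and 41038144 in Cyp1a2_C. Strain, virus, tamoxifen, depth and the presence of a tumour all change together between WT and tumours and cannot be told apart. Fewer endothelial cells and less RNA per endothelial cell cannot be told apart in bulk tissue either. Libraries with the same animal number were summed, and the tests below take each animal number as 1 replicate. In 4 libraries the muscle gene Ttn stood above 1000 CPM (the usual depth-scaled unit of read counts, here with TMM scaling): CAB44 and CAB225 of Cyp1a2_CA, GAB235 of Gls2_CA and the Cyp1a2_C library CB6. They had 8668 to 30171 CPM, and the other 16 tumour libraries 2.26 to 92.9. Values without them are given where they moved a call of the 10 genes, a count on a list or an order of levels named below. Exon length moved with the tumour comparison over all genes: those with more than 8000 exon bases had a median log2 fold change of 1.27 in Cyp1a2_CA and 1.24 in Gls2_CA, and those with up to 1000 bases had -1.01 and -1.08. Stab1, Stab2 and Kdr exceed 8000 bases, so values with an offset for length and GC content are given beside each of the 10 genes. Fold changes of single genes on the other lists are given without this offset, and their size may depend on it.

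The 4 sinusoidal genes fell in both tumour groups, Stab2 5.07-fold in Cyp1a2_CA and 5.53-fold in Gls2_CA and Clec4g 4.05-fold in each. The genes of most vessels did not move together: Pecam1 rose 3.76-fold in Cyp1a2_CA and 3.15-fold in Gls2_CA, Kdr fell 2.51-fold and 2.59-fold, and Cdh5 and Eng did not pass the test. The capillary pair split, with Plvap lower and Cd34 higher. In each tumour group 6 of the 10 genes were lower at an adjusted p under 0.05, where 32.7% of all genes tested were lower in Cyp1a2_CA and 34% in Gls2_CA. Without the libraries with high Ttn, Cdh5 joined them and 7 were lower in each group. In that setting 5774 of 16253 genes tested were lower in Cyp1a2_CA and 5771 of 15130 in Gls2_CA. The 2 genes that were higher with all libraries compare with 38.3% and 39.2% of all genes. These shares of all genes, higher and lower, also stand beside the counts on the other gene lists below. The median log2 difference of all genes was 0.175 in Cyp1a2_CA and 0.138 in Gls2_CA. It moved to -0.05 and -0.09 with upper-quartile scaling. The tumour groups share the WT animals, so their values against WT stand side by side and are not independent.

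**Figure D1:**
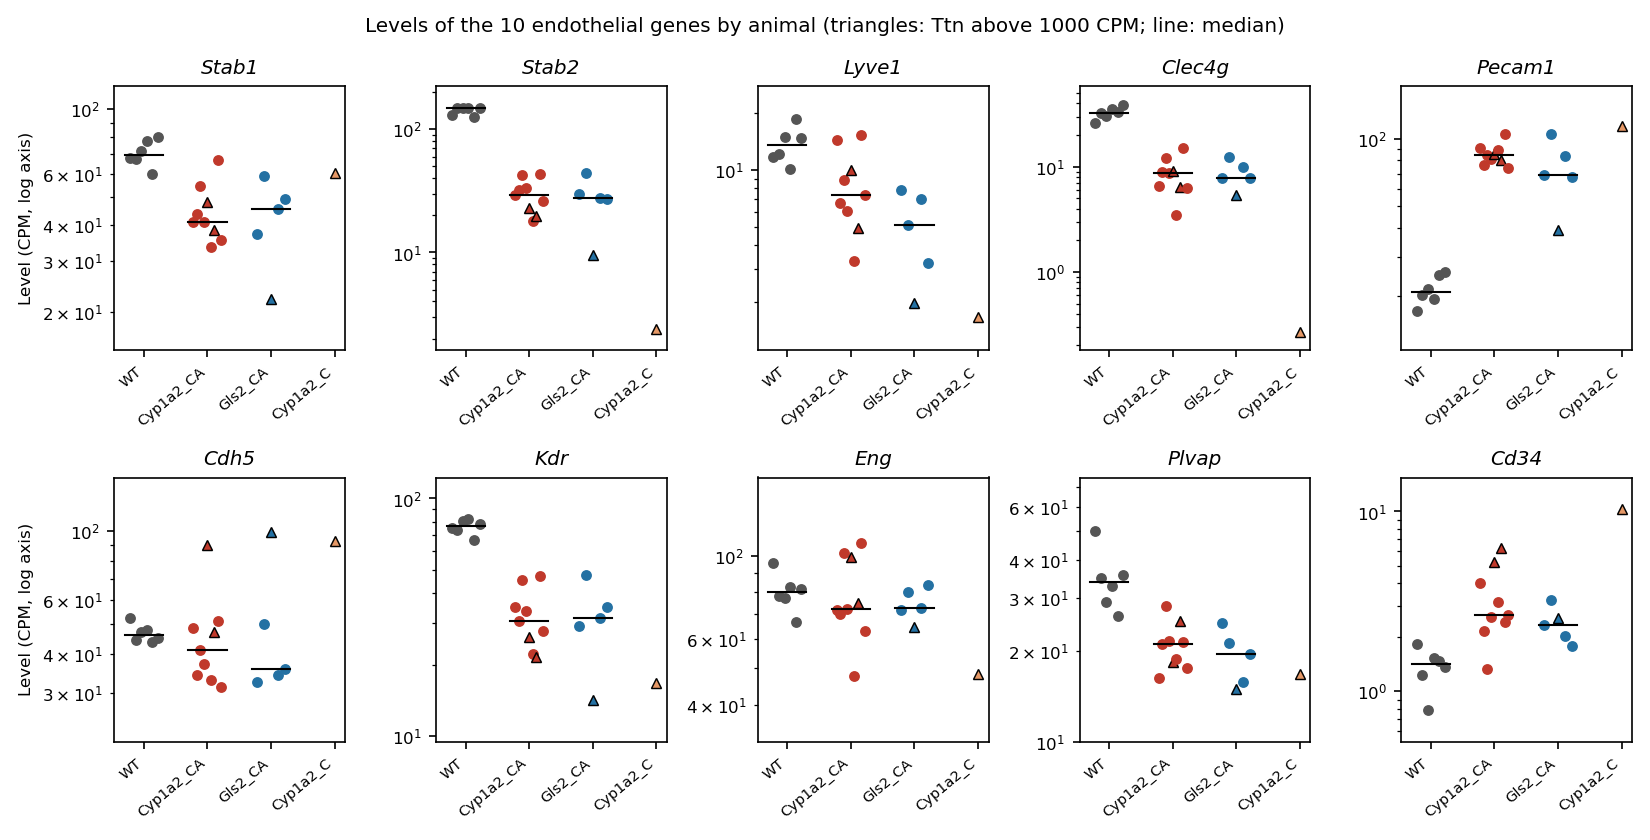
Level of each gene in each animal (vertical axis, CPM on a log scale) for WT (n = 6), Cyp1a2_CA (n = 9), Gls2_CA (n = 5) and Cyp1a2_C (n = 1), with a line at the median and triangles for samples with Ttn above 1000 CPM. Stab2, Clec4g and Kdr lay below every WT animal and Pecam1 above every WT animal in both replicated tumour groups, and the highest Cdh5 values of these groups (90 and 99.0 CPM) were triangles.

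**Figure D2:**
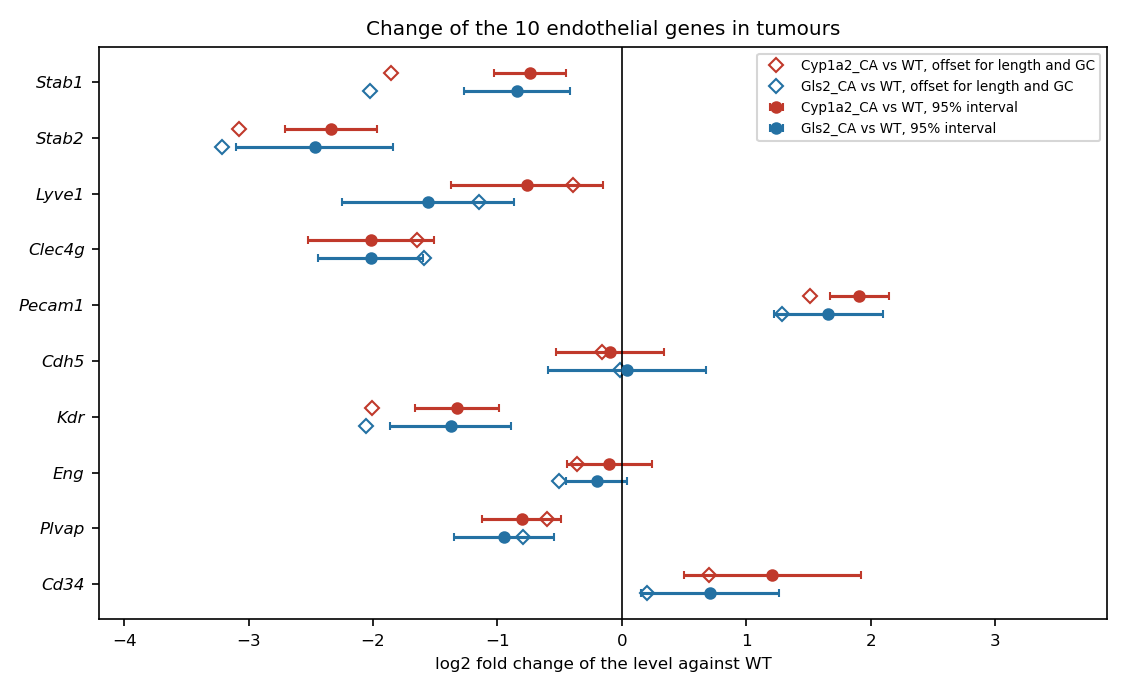
Log2 fold change of each gene against WT (horizontal axis) for Cyp1a2_CA and Gls2_CA, as filled points with the 95% interval of the edgeR fit, and as open diamonds with an offset for exon length and GC content. Stab2 (-2.34 and -2.47) and Pecam1 (1.91 and 1.66) lie farthest from 0 on either side, and the offset moved Stab1 from -0.74 to -1.85 and from -0.84 to -2.02.

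Stab1 and Stab2 encode stabilins, large scavenger receptors that clear hyaluronan and other molecules from blood. Stab1 (mm10 chromosome 14, 31139013 to 31168641, minus strand) ranged from 59.9 through a median of 69.8 to 80.2 CPM in WT and from 33.6 through 40.9 to 67.0 CPM in Cyp1a2_CA. In Gls2_CA the 5 animals had 37.1, 58.9, 22.2, 45.3 and 49.1 CPM in the order GAB18, GAB229, GAB235, GAB242 and GAB294, an order kept for the genes that follow. All but 1 Cyp1a2_CA animal and all Gls2_CA animals lay below the lowest WT liver. The log2 fold change was -0.74 (SE 0.138, adjusted p = 0.00018) in Cyp1a2_CA and -0.84 (SE 0.195, adjusted p = 0.002) in Gls2_CA. With the offset for length and GC it was -1.85 and -2.02, so the size of the fall in Stab1, which has 10288 exon bases, depends on that correction. Stab1 shares 112 exon bases with Nt5dc2 on the opposite strand, and the strand setting of the counting is not given in the sources used here.

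Stab2 (chromosome 10, 86841198 to 87008025, minus strand) ranged from 125 through 148 to 150 CPM in WT and from 18.0 through 29.2 to 43.0 CPM in Cyp1a2_CA. The Gls2_CA animals had 29.9, 44.4, 9.50, 27.6 and 27.0 CPM, and no tumour animal of either group reached the WT range. Stab2 fell by a log2 fold change of -2.34 (SE 0.173, adjusted p = 7.9e-09) in Cyp1a2_CA and -2.47 (SE 0.288, adjusted p = 1.1e-05) in Gls2_CA. Among all genes tested these values stood at the percentiles 3.13 and 2.96, and without the libraries with high Ttn they were -2.24 and -2.26. In the offset fit, Stab2 stood at -3.08 and -3.21. Stab2 shares 141 exon bases with the antisense gene Gm16268.

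Lyve1, a hyaluronan receptor of sinusoidal and lymphatic endothelium that some macrophages also express (chromosome 7, 110850607 to 110863239, minus strand), ranged from 10.1 through 13.5 to 18.5 CPM in WT. It ranged from 3.31 through 7.38 to 15.3 CPM in Cyp1a2_CA, where 2 of 9 animals lay within the WT range. Levels in Gls2_CA were 7.80, 5.09, 1.97, 7.0 and 3.23 CPM, all below WT. Its log2 fold change was -0.76 (SE 0.286, adjusted p = 0.026) in Cyp1a2_CA and -1.56 (SE 0.316, adjusted p = 0.00083) in Gls2_CA. The Cyp1a2_CA call was lost with no filter on low counts (-0.71, adjusted p = 0.05), with the offset (-0.39, adjusted p = 0.24) and without WT replicate 5 (-0.65, adjusted p = 0.069). In Gls2_CA the offset gave -1.15 (adjusted p = 0.0031). Macrophage markers fell beside it, with 6 of 11 lower and 0 higher in Cyp1a2_CA and 7 lower and 2 higher in Gls2_CA. Their summed level was 327 to 401 CPM in WT, 79.9 to 267 in Cyp1a2_CA and 137 to 268 in Gls2_CA, none of the 11 was at 0, and their part in the result was not tested. Of 8 lymphatic markers, 1 rose and 3 fell of 6 tested in Cyp1a2_CA and 1 rose and 4 fell of 6 in Gls2_CA. This list includes Lyve1 itself and Flt4, which is also on the list of other sinusoidal genes below. Both were among the genes that fell in each group. Without the libraries with high Ttn none rose and 4 fell in each group, and none rose with the offset or with upper-quartile scaling. They summed to 527 to 641 CPM in WT, 468 to 1301 in Cyp1a2_CA and 465 to 1531 in Gls2_CA, mostly from Prox1, which hepatocytes also express, and Ccl21a was at 0 in every group.

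Clec4g encodes LSECtin, a C-type lectin of sinusoidal endothelium (chromosome 8, 3707064 to 3720651, minus strand). It ranged from 25.8 through 32.7 to 39.0 CPM in WT and from 3.45 through 8.66 to 15.2 CPM in Cyp1a2_CA. The Gls2_CA animals had 7.86, 12.3, 5.35, 9.95 and 7.79 CPM, and neither tumour group overlapped WT. Clec4g changed by a log2 of -2.02 in each, with SE 0.238 and adjusted p = 1.5e-06 for Cyp1a2_CA, and SE 0.191 and adjusted p = 1.9e-06 for Gls2_CA. With the offset it was -1.64 and -1.59, a smaller fall, in the opposite direction to the shift of the stabilins. Clec4g shares 146 exon bases with the antisense gene Gm16553.

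Pecam1 encodes CD31, an adhesion molecule at endothelial junctions that platelets and leukocytes also carry (chromosome 11, 106654217 to 106750628, minus strand). It ranged from 17.3 through 20.9 to 25.5 CPM in WT and from 73.9 through 84.5 to 105 CPM in Cyp1a2_CA. Levels in Gls2_CA were 69.1, 105, 39.2, 83.5 and 67.3 CPM, and every tumour animal lay above every WT animal. Against WT, Pecam1 changed by 1.91 on the log2 scale (SE 0.113, adjusted p = 7.9e-10) in Cyp1a2_CA and 1.66 (SE 0.2, adjusted p = 1.5e-05) in Gls2_CA. With the offset these were 1.52 and 1.28. Pecam1 was thus the only one of the 10 genes whose animals all lay above WT, a pattern shown by 23.4% of genes tested in Cyp1a2_CA and 29.9% in Gls2_CA. Ptprc, the CD45 gene of all leukocytes, rose with it, from 12.3 ± 1.56 CPM (SD, n = 6) in WT to 43.8 ± 10.3 (n = 9) and 64.0 ± 20.1 (n = 5). The summed level of the 6 blood progenitor and leukocyte markers was 15.3 to 19.1 CPM in WT, 27.8 to 63.3 in Cyp1a2_CA and 46.8 to 99.1 in Gls2_CA. Ptprc made up most of the sum of these markers in each of these groups. Of these markers, 1 rose and 1 fell of 6 tested in Cyp1a2_CA, and 1 rose and 0 fell of 4 tested in Gls2_CA. Without high Ttn 1 rose and 2 fell in Cyp1a2_CA, with the same counts as before in Gls2_CA. The platelet list summed to 2.72 to 3.88 CPM in WT (Gp9 at 0), 0.584 to 7.35 in Cyp1a2_CA and 1.27 to 11.8 in Gls2_CA, and of it 1 rose and 2 fell of 4 tested and 0 rose and 2 fell of 2. With the high-Ttn libraries left out, 0 rose and 2 fell, of 3 tested in Cyp1a2_CA and of 2 in Gls2_CA. The part of these cells in the Pecam1 values was not tested.

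Cdh5 encodes VE-cadherin, the cadherin of endothelial junctions (chromosome 8, 104101625 to 104144511, plus strand). It ranged from 43.9 through 46.3 to 52.5 CPM in WT and from 31.4 through 41.2 to 90 CPM in Cyp1a2_CA. The Gls2_CA animals had 32.6, 50.3, 99.0, 34.3 and 36.0 CPM. Tumours lay on both sides of WT: 5 of 9 Cyp1a2_CA animals were below every WT animal and 1 above, and 3 of 5 Gls2_CA animals were below and 1 above. The log2 fold change was -0.09 (95% interval -0.531 to 0.342, adjusted p = 0.69) in Cyp1a2_CA and 0.04 (95% interval -0.591 to 0.677, adjusted p = 0.9) in Gls2_CA. The animals above WT were CAB44 and GAB235, and without the libraries with high Ttn Cdh5 was lower in both groups, by -0.34 (adjusted p = 0.024) and -0.41 (adjusted p = 0.0097). With the offset and all libraries Cdh5 stood at -0.16 and -0.02. At single libraries, CAB44, CAB225, GAB235 and CB6 had 90.2, 47.9, 99.7 and 96.4 CPM of Cdh5, and the other 16 tumour libraries 28.1 to 50.

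Kdr encodes VEGFR2, the main signalling receptor for VEGF-A on endothelium (chromosome 5, 75932827 to 75978458, minus strand). It ranged from 67.1 through 76.7 to 81.7 CPM in WT and from 21.6 through 30.4 to 47.0 CPM in Cyp1a2_CA. In Gls2_CA it had 29.2, 47.8, 14.2, 31.4 and 35.1 CPM, and no tumour animal reached the WT range. Kdr had a log2 fold change of -1.33 (SE 0.158, adjusted p = 1.7e-06) in Cyp1a2_CA and -1.38 (SE 0.223, adjusted p = 0.00016) in Gls2_CA, and -2.01 and -2.06 with the offset. Kdr with Stab2 and Clec4g made 3 of 10 genes with every Cyp1a2_CA animal below every WT animal, against 20.8% of all genes tested. In Gls2_CA 6 of 10 had this pattern (Stab1, Stab2, Lyve1, Clec4g, Kdr and Plvap), against 26% of all genes.

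Eng encodes endoglin, a co-receptor for BMP9 and BMP10 (chromosome 2, 32646595 to 32682669, plus strand). It ranged from 66.3 through 79.8 to 95.8 CPM in WT and from 47.7 through 72.2 to 108 CPM in Cyp1a2_CA. The Gls2_CA animals had 71.7, 79.9, 64.3, 72.4 and 83.7 CPM, and 4 of 9 and 4 of 5 tumour animals lay within the WT range. The log2 fold change was -0.10 (95% interval -0.442 to 0.241, adjusted p = 0.59) in Cyp1a2_CA and -0.20 (95% interval -0.448 to 0.0412, adjusted p = 0.12) in Gls2_CA. It passed the threshold with the offset (-0.36, adjusted p = 0.046, and -0.51, adjusted p = 0.0027) and in Gls2_CA with upper-quartile scaling (-0.43, adjusted p = 0.0058). Eng shares 61 exon bases with Fpgs on the opposite strand.

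Plvap encodes the protein of the diaphragms that span endothelial pores and caveolae, which rise in capillarized sinusoids (chromosome 8, 71497765 to 71511752, minus strand). It ranged from 26.0 through 33.8 to 50 CPM in WT and from 16.3 through 21.1 to 28.2 CPM in Cyp1a2_CA. In Gls2_CA it had 24.8, 21.2, 15.0, 15.8 and 19.5 CPM, so 1 of 9 Cyp1a2_CA animals and no Gls2_CA animal lay within the WT range. Its log2 fold change was -0.80 (SE 0.148, adjusted p = 0.00017) in Cyp1a2_CA and -0.95 (SE 0.183, adjusted p = 0.00057) in Gls2_CA, and -0.61 (adjusted p = 0.0015) and -0.79 (adjusted p = 0.00066) with the offset.

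Cd34 encodes a sialomucin of continuous endothelium and of blood progenitors (chromosome 1, 194938819 to 194961279, plus strand). It had the lowest level of the 10 genes, with 12 to 32 counts per WT library. It ranged from 0.788 through 1.41 to 1.84 CPM in WT and from 1.33 through 2.65 to 6.27 CPM in Cyp1a2_CA. The Gls2_CA animals had 2.34, 3.23, 2.57, 2.02 and 1.78 CPM, and 8 of 9 and 4 of 5 tumour animals lay above every WT animal. The log2 fold change was 1.21 (SE 0.336, adjusted p = 0.0045) in Cyp1a2_CA, where CAB225 (6.27 CPM) and CAB44 (5.23 CPM) were highest, and 0.84 (adjusted p = 0.011) without them. In Gls2_CA it was 0.71 (SE 0.254, adjusted p = 0.024), a call lost in 8 of 23 alternatives, among them upper-quartile scaling (0.48, adjusted p = 0.11), the offset (0.20, adjusted p = 0.49), and leaving out Gls2_CA replicate 2 (0.59, adjusted p = 0.06), WT replicate 2 (0.66, adjusted p = 0.055) or WT replicate 3 (0.57, adjusted p = 0.054). With the offset Cd34 did not pass in Cyp1a2_CA either (0.70, adjusted p = 0.063). Cd34 shares 148 exon bases with the antisense gene Gm16897.

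Between genes, levels were compared per kilobase of exon. In WT the order of mean CPM per kilobase was Eng (19.8 ± 2.37, SD, n = 6), Plvap (17.5 ± 4.19), Stab2 (16.2 ± 1.29), Clec4g (13.3 ± 1.84), Cdh5 (11.2 ± 0.756), Kdr (8.42 ± 0.596), Stab1 (6.89 ± 0.726), Lyve1 (4.70 ± 1.04), Pecam1 (3.45 ± 0.513) and Cd34 (0.188 ± 0.0481). The neighbours from Eng down to Cdh5, and Lyve1 and Pecam1, did not differ beyond their SDs. In Cyp1a2_CA Eng stayed first (19.4 ± 4.96, SD, n = 9), Pecam1 was second (13.7 ± 1.47), and Stab2 (3.38 ± 1.03) and Clec4g (3.46 ± 1.41) stood among Stab1, Kdr and Lyve1, whose SDs overlapped from neighbour to neighbour. In Gls2_CA the order began with Eng (18.4 ± 1.87, SD, n = 5), Cdh5 (12.0 ± 6.67) and Pecam1 (11.7 ± 3.86), and Stab2 (3.16 ± 1.42) was eighth. From Eng to Pecam1 the SDs overlapped between neighbours. Without GAB235 the Gls2_CA level of Cdh5 (9.12 ± 1.93, n = 4) came after those of Eng (19.0 ± 1.45), Pecam1 (13.0 ± 2.78) and Plvap (10.2 ± 1.88). Cd34 was last in all 3 groups.

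Ratios of counts within a sample need no library scaling and compare endothelial genes with each other. The log2 ratio of Stab2 to Pecam1 counts was 2.73 ± 0.24 (SD, n = 6) in WT, -1.58 ± 0.43 (n = 9) in Cyp1a2_CA and -1.48 ± 0.35 (n = 5) in Gls2_CA, a ratio 19.8-fold and 18.6-fold lower. Against Cdh5, whose level did not pass the test, the Stab2 ratio was 1.60 ± 0.16 in WT, -0.62 ± 0.66 in Cyp1a2_CA and -0.88 ± 1.40 in Gls2_CA, with every tumour animal below every WT animal. Without the animals with high Ttn the Stab2 to Cdh5 ratio was -0.34 ± 0.34 (n = 7) and -0.26 ± 0.13 (n = 4), again with no overlap with WT. Stab2 also lay lower relative to Kdr, with 0.90 ± 0.08 in WT and -0.12 ± 0.12 and -0.24 ± 0.24 in the tumour groups, and no overlap. The 2 stabilins separated as well, since the Stab2 to Stab1 ratio went from 1.01 ± 0.10 to -0.62 ± 0.29 and -0.70 ± 0.37. Stab1 to Kdr went the other way, from -0.11 ± 0.08 to 0.50 ± 0.24 and 0.46 ± 0.14. Count ratios carry no offset for length and GC. With it, Stab1 stood at -1.85 and -2.02 against WT and Kdr at -2.01 and -2.06. The size of this divergence thus depends on that correction. Pecam1 to Cdh5 was -1.14 ± 0.30 in WT and 0.95 ± 0.43 in Cyp1a2_CA, where all 9 animals were above WT, and 0.60 ± 1.09 in Gls2_CA, where GAB235 (-1.34) lay within the WT range. In animals with low Ttn it was 1.13 ± 0.17 and 1.08 ± 0.16, all above WT. Eng to Cdh5 had means of 0.77 ± 0.10, 0.81 ± 0.36 and 0.69 ± 0.77, and 0.92 ± 0.28 and 1.02 ± 0.24 in the low-Ttn tumours. Ratios of the other sinusoidal genes were mixed. Clec4g to Cdh5 lay below WT in all 9 and all 5 tumour animals. Stab1 to Cdh5 was 0.59 ± 0.17 in WT and 0.17 ± 0.23 and 0.32 ± 0.13 in low-Ttn tumours. There 5 of 7 and 2 of 4 animals lay below WT. Lyve1 to Kdr overlapped WT, with -2.49 ± 0.38 in WT, -2.01 ± 0.50 in Cyp1a2_CA and -2.72 ± 0.66 in Gls2_CA. These ratios are descriptions with no test, and a ratio shows unequal change and not which gene moved.

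**Figure D3:**
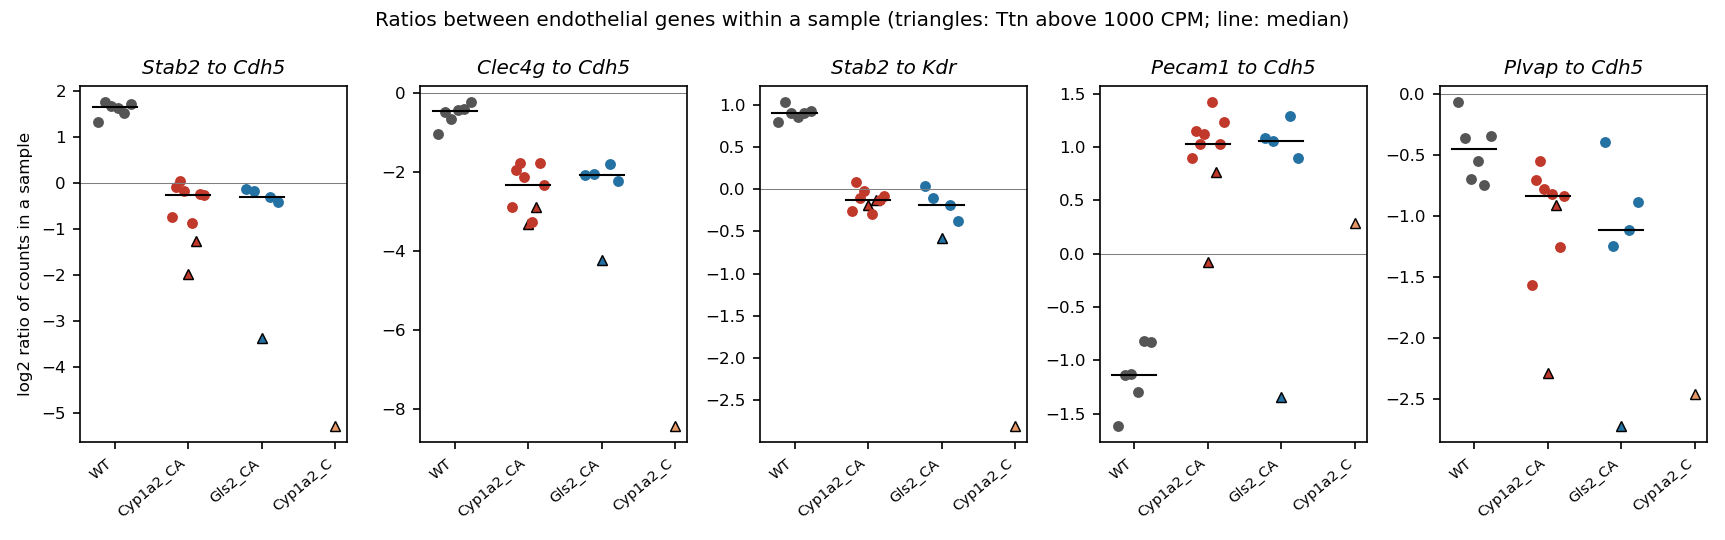
Log2 ratio of the counts of 2 endothelial genes within a sample (vertical axis) by group, 1 point per animal, with a line at the median and triangles for samples with Ttn above 1000 CPM. Stab2 to Kdr fell from 0.80 or more in each WT animal to 0.09 or less in each tumour animal, and the triangles of CAB44, GAB235 and CB6 lie lowest for Stab2 to Cdh5 (-1.98, -3.38 and -5.27).

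Cyp1a2_CA and Gls2_CA tumours were compared directly, in a fit in which strain and tamoxifen do not differ by group. Library totals overlapped, but summed depth differed between animal numbers. CAB28 of Cyp1a2_CA joins 2 libraries, and GAB242 and GAB294 of Gls2_CA join 3 each. None of the 10 genes passed, nor did any of the 17129 genes tested with edgeR (0% higher and 0% lower, with 554 genes at an unadjusted p under 0.05). DESeq2 called 19 genes and limma-voom 10, none of them among the 10. The largest difference was in Lyve1, 1.72-fold higher in Cyp1a2_CA (log2 0.78, 95% interval -0.0607 to 1.63, p = 0.066, adjusted p = 1). For Stab2 the interval was -0.517 to 0.744 around 0.11, for Clec4g -0.637 to 0.618 around -0.01, for Pecam1 -0.139 to 0.622 around 0.24 and for Kdr -0.501 to 0.576 around 0.04. For these 4 genes the intervals include 0 and reach at most 0.744, so larger differences between the tumour groups lie outside them and smaller ones were not resolved.

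Several libraries of 1 animal number gave the spread within an animal. The 2 libraries of CAB28 had 78.4 and 79.3 CPM of Pecam1 and 28.5 and 35.5 CPM of Stab2. The 3 libraries of GAB242 spanned 17.7 to 32.6 CPM of Stab2 and 5.09 to 12.5 CPM of Clec4g, and those of GAB294 spanned 45.0 to 85.5 CPM of Pecam1 and 0.567 to 2.47 CPM of Cd34. In GAB294 the log2 range within the animal number was 0.93 for Pecam1, 0.91 for Eng, 1.38 for Plvap and 2.12 for Cd34, each wider than the range between the 4 Gls2_CA animals with low Ttn (0.64, 0.22, 0.65 and 0.86). Kdr (0.16 against 0.71) and Stab2 (0.70 against 0.72) were narrower there. In GAB242 only Stab2 (0.88) and Clec4g (1.29 against 0.65) were wider within. In CAB28 each gene was narrower within than between the 7 low-Ttn Cyp1a2_CA animals, as for Pecam1 (0.02 against 0.5). Ranges within used single libraries and ranges between used summed counts, so the 2 are not on equal terms.

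The Cyp1a2_C library has no replicate and no test. It had 2.41 CPM of Stab2, 1.67 of Lyve1 and 0.27 of Clec4g (15 counts), each below every animal of the other groups, and 60.5 CPM of Stab1, within the WT range. Pecam1 (114 CPM), Cdh5 (92.8) and Cd34 (10.3) lay above every WT animal. Kdr and Plvap both had 16.8 CPM and Eng 48.4. The sinusoidal genes thus ranged in this library from 0.27 CPM for Clec4g to a Stab1 value like that of WT liver. Its 6 hepatocyte markers summed to 395 CPM, against 67006 to 89207 in WT, and its 11 stellate and fibroblast markers to 1288 CPM, against 284 to 350. Genotype and high Ttn cannot be told apart in this library.

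Other sinusoidal genes, from a list of 15, were mostly lower: 10 fell and 3 rose of 15 tested in Cyp1a2_CA (median log2 -1.29), and 10 fell and 2 rose of 14 tested in Gls2_CA (median -1.35). Ehd3, which acts in endocytic recycling, went from 70.5 ± 8.40 CPM (SD, n = 6) in WT to 14 ± 4.90 (n = 9) and 17.6 ± 5.77 (n = 5), a log2 change of -2.40 (adjusted p = 1.6e-07) and -2.10 (adjusted p = 1.5e-06). Mrc1, the mannose receptor that macrophages share, fell by 2.42 and 2.31 on the log2 scale. Oit3 fell by 2.04 and 2.15. Flt4, the receptor VEGFR3, fell by 1.94 (adjusted p = 6.8e-07) and by 2.06 (adjusted p = 2.3e-05) on the same scale. Without high Ttn 2 rose and 10 fell in Cyp1a2_CA, and 3 rose and 10 fell in Gls2_CA. Not all of the list went down. Dab2, an endocytic adaptor, rose from 24.5 ± 2.78 to 58.7 ± 21.8 and 58.4 ± 5.68 CPM. F8, the coagulation factor VIII gene, rose by 0.57 (adjusted p = 0.028) and 0.55 (adjusted p = 0.031). With upper-quartile scaling 1 gene of the list rose in each group, and 10 fell in Cyp1a2_CA and 11 in Gls2_CA. With the offset 2 rose and 10 fell in Cyp1a2_CA, and 1 rose and 9 fell in Gls2_CA. Gata4 did not pass (0.05, adjusted p = 0.76, and -0.41, adjusted p = 0.14). The macrophage values above apply to Mrc1 as well.

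Of 6 genes of endothelium around the central vein, 2 fell and 0 rose in each tumour group. Without the libraries with high Ttn all 6 fell, with list medians of -2.21 in Cyp1a2_CA and -1.74 in Gls2_CA. Wnt9b, a Wnt ligand of central endothelium, fell. Its level was 1.40 ± 0.53 CPM in WT, 0.207 ± 0.121 in the Cyp1a2_CA group (a log2 change of -2.79, adjusted p = 1.3e-05) and 0.366 ± 0.134 in Gls2_CA (-2.03, adjusted p = 0.00033). Wnt2 did not pass in Cyp1a2_CA (-1.11, adjusted p = 0.094) and fell in Gls2_CA (-1.13, adjusted p = 0.0027). Thbd, the thrombomodulin gene, fell in Cyp1a2_CA (-1.55, adjusted p = 0.011). In Gls2_CA its level ranged from 1.08 to 15.6 CPM, on both sides of the WT range of 5.06 to 9.97 CPM. With all libraries Cdh13 did not pass in either group (1.26, adjusted p = 0.18, and 2.14, adjusted p = 0.084), and the Wnt enhancer gene Rspo3 did not pass in Gls2_CA (-1.24, adjusted p = 0.11). Of 8 portal and arterial genes, 3 rose and 2 fell in each group, close to the shares of all genes tested. Sox17, a transcription factor of arterial endothelium, rose from 1.34 ± 0.312 CPM to 5.91 ± 1.55 (log2 2.06, adjusted p = 6.2e-07) and 5.29 ± 2.73 (1.86, adjusted p = 0.00046). Efnb2 rose by log2 1.53 and 1.66, while the Notch ligand Dll4 fell (-0.65, adjusted p = 0.0022, and -1.01, adjusted p = 0.0018). Ntn4, a netrin of basement membranes, fell from 8.09 ± 1.24 CPM to 2.52 ± 0.786 (-1.75, adjusted p = 1.9e-06) and 3.04 ± 1.83 (-1.52, adjusted p = 0.0029).

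The 20 other genes of all endothelium moved in both directions, with 6 higher and 9 lower in Cyp1a2_CA (median -0.40) and 5 higher and 9 lower in Gls2_CA (median -0.44). Erg, an ETS factor of endothelium, rose from 7.01 ± 1.57 CPM to 35.1 ± 5.54 (log2 2.25, adjusted p = 4e-09) and 32.5 ± 12.3 (2.10, adjusted p = 2.2e-05). Ramp2, part of the adrenomedullin receptor, fell from 6.85 ± 1.01 CPM to 1.60 ± 0.438 (-2.17, adjusted p = 1.1e-07) and 1.32 ± 0.517 (-2.47, adjusted p = 3.1e-06). Mmrn2, an endothelial matrix protein, fell by 1.38 and 1.48 on the log2 scale. Cldn5, a claudin of endothelial tight junctions, fell by 1.82 (adjusted p = 1.3e-06) and by 2.35 (adjusted p = 8.5e-05). Clec14a, an endothelial surface lectin, fell from 17.0 ± 2.89 CPM to 4.70 ± 1.84 and 4.68 ± 1.49 (-1.94, adjusted p = 2.3e-06, and -1.97, adjusted p = 1e-05). Without high Ttn 6 of the list rose in each group, and 11 fell in Cyp1a2_CA and 9 in Gls2_CA.

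Of 16 capillary and angiogenic genes, 9 rose and 2 fell of 14 tested in Cyp1a2_CA (median 1.22), where 38.3% and 32.7% of all genes did. In Gls2_CA 6 rose and 4 fell of 13 tested (median 0.65), near the shares of all genes, 39.2% and 34%. Without the high-Ttn libraries 8 rose and 3 fell of 13 in Cyp1a2_CA (median 0.98), and 8 rose and 4 fell of 13 in Gls2_CA (median 0.88). With the offset, and with upper-quartile scaling, 8 rose and 3 fell of 14 in Cyp1a2_CA. In Gls2_CA 6 rose and 4 fell of 13 with the offset, and 6 rose and 5 fell with upper-quartile scaling. Esm1, a gene of tip cells, had 0 to 0.502 CPM in WT and 2.16 to 9.94 CPM in Cyp1a2_CA (log2 3.96, adjusted p = 5e-05). In Gls2_CA it had 1.37 to 3.98 CPM, also above every WT animal. Ly6c1, a gene of continuous capillaries and of monocytes, rose by log2 3.57 (adjusted p = 9.1e-06) and 4.67 (adjusted p = 2.5e-05) from 0.226 ± 0.111 CPM. WT levels of Esm1 and Ly6c1 (0.122 to 0.358 CPM) lay near the floor of the counts, so the size of these changes is uncertain. Cd200, a surface glycoprotein gene of endothelium and lymphocytes, rose from 0.875 ± 0.24 CPM to 3.42 ± 2.69 (1.90, adjusted p = 0.0036) and 3.78 ± 1.21 (2.01, adjusted p = 3.3e-05). Col4a1, a basement membrane collagen, rose from 58.2 ± 8.91 CPM to 186 ± 69.1 (1.61, adjusted p = 3e-05) and 148 ± 57.2 (1.24, adjusted p = 0.00021). Its partner Col4a2 did not follow, with -0.48 (adjusted p = 0.1) and -0.96 (adjusted p = 0.00062), and Lama4, a vessel laminin, fell (-1.21 and -1.56). Among 17 genes of VEGF, angiopoietin and BMP signalling, 4 rose and 5 fell of 16 tested in each group, and 4 rose and 8 (Cyp1a2_CA) or 7 (Gls2_CA) fell without the libraries with high Ttn. Vegfa, the ligand of Kdr, rose from 144 ± 7.35 CPM to 365 ± 79.5 (1.26, adjusted p = 1.1e-06) and 351 ± 69.1 (1.19, adjusted p = 1.4e-05), in the same tumours in which Kdr fell. Nrp2, a co-receptor for VEGF and semaphorins, rose from 18.2 ± 2.24 CPM to 77.4 ± 33.7 (2.01, adjusted p = 5.3e-05) and 79.5 ± 10.8 (2.04, adjusted p = 9.1e-08). The ligands of Eng fell while Eng did not pass: Gdf2 (BMP9) went from 19.0 ± 2.60 to 1.83 ± 1.07 and 1.99 ± 0.347 CPM (-3.44, adjusted p = 3.9e-07, and -3.34, adjusted p = 2.3e-08), and Bmp10 from 2.37 ± 0.389 to 0.386 ± 0.244 and 0.416 ± 0.11.

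**Figure D4:**
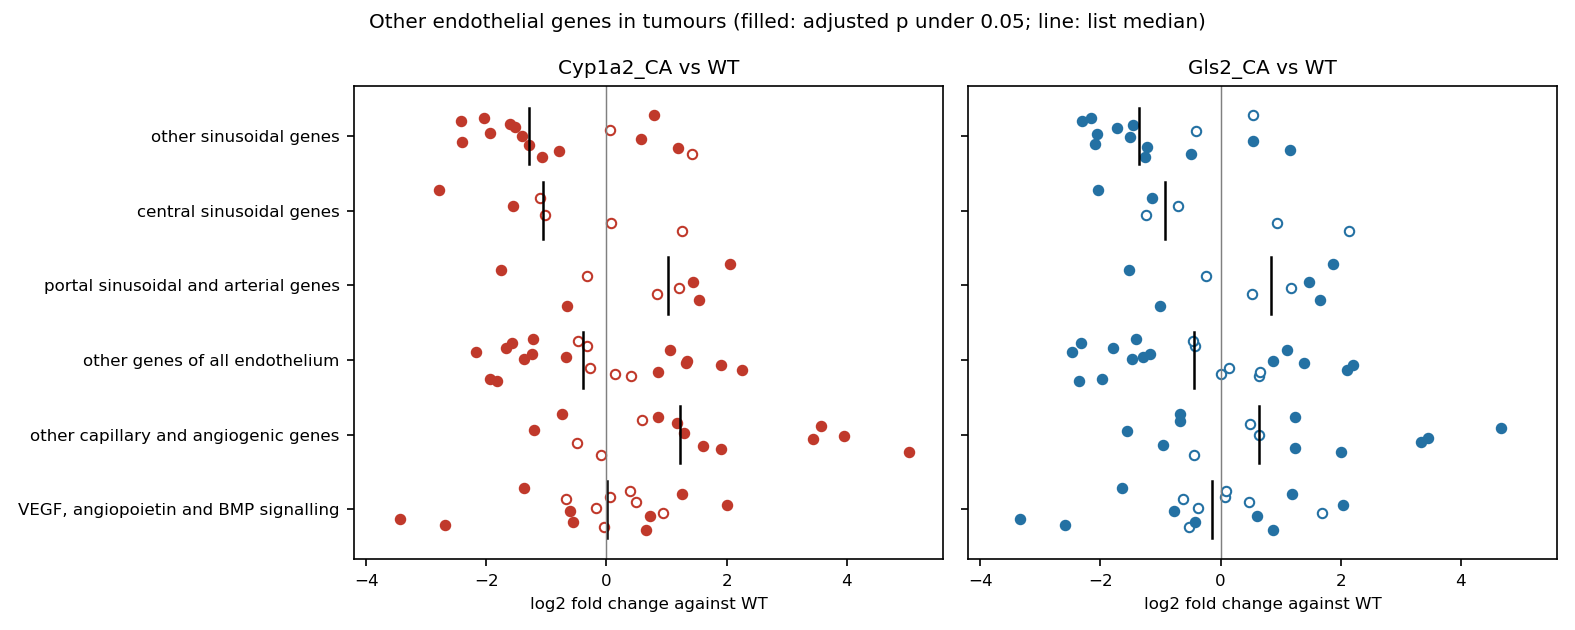
Log2 fold change against WT (horizontal axis) of the genes on 6 endothelial lists in Cyp1a2_CA and Gls2_CA, filled where the adjusted p was under 0.05, with a line at each list's median. The median of the other sinusoidal genes lay at -1.29 and -1.35 and that of the capillary and angiogenic genes at 1.22 and 0.65, and each list but the central one had called genes on both sides of 0.

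Marker lists of the other cells in the tissue moved with the same comparison. Of the 6 hepatocyte markers 5 fell in Cyp1a2_CA and 6 in Gls2_CA, with sums of 67006 to 89207 CPM in WT, 7953 to 42723 in Cyp1a2_CA and 2959 to 15034 in Gls2_CA. Of 11 stellate and fibroblast markers 5 fell and 1 rose in Cyp1a2_CA (8 fell and 0 rose without high Ttn), and 7 fell and 0 rose in Gls2_CA (8 and 0). Their sums were 284 to 350 CPM in WT, 105 to 758 in Cyp1a2_CA and 120 to 426 in Gls2_CA. No hepatocyte or stellate marker was at 0 in any group, and the part of these cells in the endothelial values was not tested.

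Among tumours the 10 genes varied together in part. Over the 14 animals of Cyp1a2_CA and Gls2_CA, the Spearman correlation of levels was 0.89 for Stab1 and Clec4g, 0.88 for Stab1 and Eng, 0.88 for Stab2 and Kdr and 0.82 for Stab2 and Clec4g. Cdh5 stood apart, with 0.05 to Stab2 and 0.11 to Kdr, but over the 11 animals with low Ttn these were 0.75 and 0.91. Cd34 had weak values with the sinusoidal genes, -0.27 to Stab1, -0.33 to Stab2, -0.31 to Clec4g and 0.01 to Lyve1. Over the low-Ttn animals they were -0.34, -0.05, -0.33 and 0.01. Genes within a library share its depth and scaling, so these values are descriptions with no test.

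**Figure D5:**
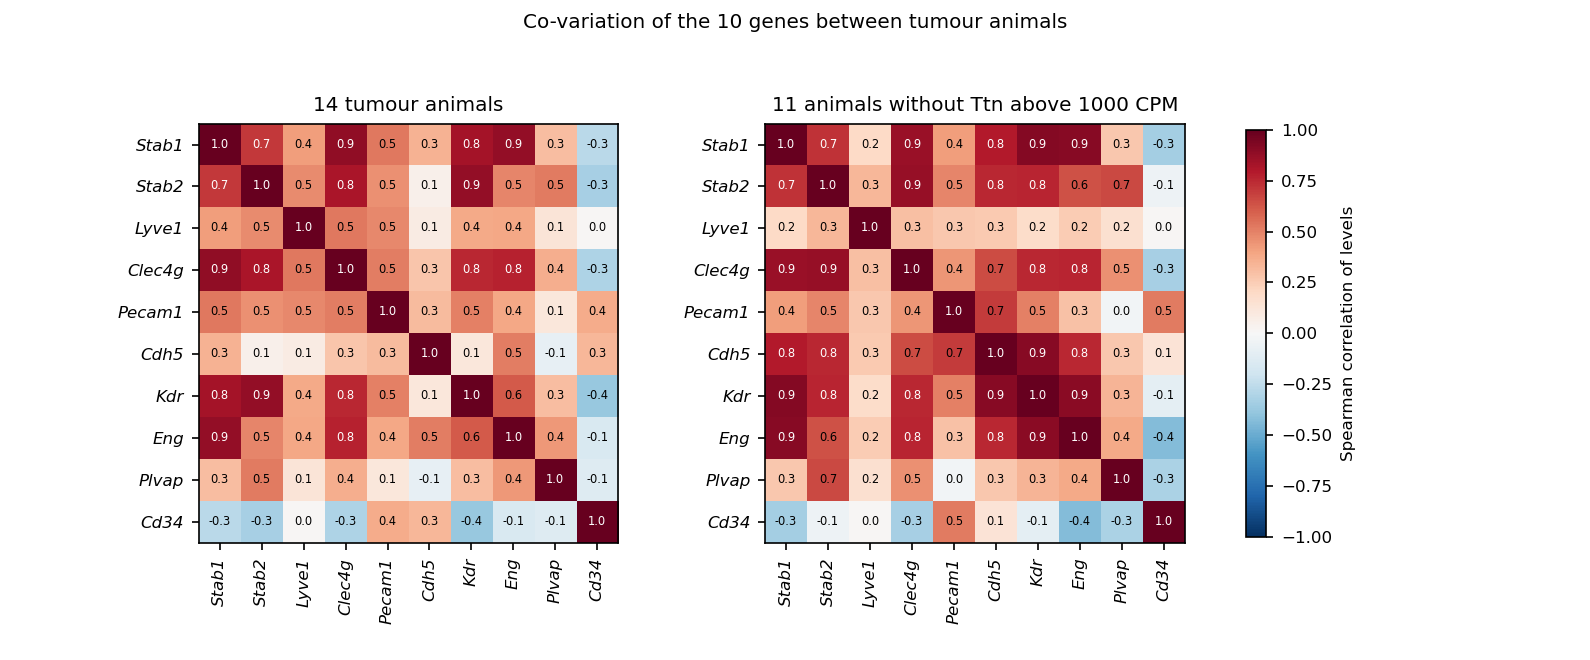
Spearman correlation of levels between each pair of the 10 genes over 14 tumour animals (left) and over the 11 animals without Ttn above 1000 CPM (right), on a colour scale from -1 to 1. Stab1, Stab2, Clec4g and Kdr form a block on both sides, and Cdh5 joins it on the right (0.91 with Kdr) but not on the left (0.11). Eng had 0.88 with Stab1 and 0.49 with Stab2 on the left, and 0.91 and 0.64 on the right. The sinusoidal gene Lyve1 had weak values with the block on the right, from 0.18 with Kdr to 0.33 with Stab2.

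Among 14377 genes with at least 1 CPM, the genes most alike to each member over the 14 animals were found by the same correlation. For Clec4g all 5 nearest reached 0.90 or more, and 4 of them were endothelial genes from the lists: Ptprb, Dnase1l3 and Mrc1 at 0.93 and Fcgr2b at 0.90, with Cd55 (0.93). Stab1 had Clec4g (0.89), Adgrl4 (0.88) and Eng (0.88) among its nearest, after Gm36741 (0.90) and E130102H24Rik (0.89). Stab2 had Ndufv3 (0.95), Cd55 (0.91), Atp5k (0.90), Polr2i (0.89) and Robo4 (0.89), and Kdr had Rbks (0.97), 5033421B08Rik (0.95), Auh (0.95), Mpzl2 (0.94) and Dpp4 (0.94). Lyve1 had Gas2 and Tmem216 (0.86), Ednrb (0.85), Hmcn1 (0.82) and Flt4 (0.79). Pecam1 had Gsto1 (0.88), Capn3 and Fam234a (0.85), and Gm39673 and Plekha3 (0.82), none of which is on an endothelial list. Over the 11 low-Ttn animals such values moved, with 0.95 for Fam234a and 0.86 for Gsto1 to Pecam1, and 0.68 for Hmcn1 to Lyve1. Cdh5 had Man2c1 (0.93), Afap1 (0.92), D830031N03Rik (0.91), Elk3 (0.89) and Sema6a (0.89). Eng had Stab1 (0.88), Hecw2 (0.86), Ctsc (0.85), Raet1e (0.83) and Gm35724 (0.82). Plvap had lower values, from Foxp2 (0.84), Ppfia2 (0.79) and Kcnj10 (0.77) to Rpa3 (0.75) and Gm16230 (0.74). Cd34 was most alike to Mcam (0.89), the gene of the vessel adhesion molecule CD146, then Kif14 (0.88), Nes and Zfp217 (0.84) and Capza1 (0.83).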

How the data were processed

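The authors' deposited table holds raw counts of reads for each gene symbol, as whole numbers. The build is mm10 per the submitters' processing notes, and neither aligner, counter, strand setting nor annotation is known from the sources used here. Per the labels' protocols, tissue was frozen, RNA was treated with DNase, and 100 ng entered a Nugen Ovation kit. Titles that repeat an animal number (CAB28, GAB242, GAB294) were taken as 1 animal and their counts added. edgeR 4.0.16 (R 4.3.3) was fitted to each pair of groups by itself: filterByExpr, TMM, robust quasi-likelihood test, Benjamini-Hochberg adjustment over all genes tested, threshold 0.05, tested on simulated counts first. Every adjusted p comes from edgeR except where the text names DESeq2 or limma. Levels are CPM. Exon lengths, GC and coordinates came from GENCODE M21, by symbol.

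The members, gene lists and tests were chosen with earlier results of these data known. By rule, genes of the endothelial lists were named for the 4 smallest p in each comparison with WT. For the lists of other cells, counts and sums stand in place of most names the rule takes. F8, Gata4 and Col4a2 were named after their values were seen. Other settings tried were scaling by RLE or upper quartile, a stricter or absent filter on low counts, libraries unsummed or the first per animal, 3 groups in 1 fit, the tool DESeq2 1.42.0, weighted limma-voom (limma 3.58.1), an offset for length and GC (mgcv 1.9.3), no libraries with Ttn above 1000 CPM, thinned tumour counts, and leaving out each animal.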

Additional observations from a re-analysis of the deposited data

Results flagged for a closer look

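In Cyp1a2_CA the Cdh5 level of CAB44 (90 CPM) and in Gls2_CA that of GAB235 (99.0 CPM) stood far from the other animals of their group by Dixon's criterion. Both libraries had Ttn above 1000 CPM. Of 30 groups of values looked at, 2 held such a sample, and chance gives about 1 in 20. The Cyp1a2_C library, which enters no comparison, lay above every WT animal for Pecam1 (114 CPM), Cdh5 (92.8 CPM) and Cd34 (10.3 CPM).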

How the results depend on the processing

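Stab1, Stab2, Clec4g, Pecam1, Kdr and Plvap kept their direction and their side of the threshold in all 27 alternatives against WT in Cyp1a2_CA and all 23 in Gls2_CA, and Lyve1 did so in Gls2_CA. The count of higher members fell from 2 to 1, with the loss of Cd34, in Cyp1a2_CA with the offset for length and GC, and in Gls2_CA with upper-quartile factors, unsummed libraries, 1 library per animal number, 3 groups in 1 fit and the offset. Leaving out 1 animal gave 1 to 2 higher members in Gls2_CA. In Gls2_CA the Cdh5 value of 0.04 turned to -0.42 with limma-voom and to -0.41 without the libraries with high Ttn, and it ranged from -0.41 to 0.18 on leaving out 1 animal, the lowest without GAB235. In Cyp1a2_CA Cdh5 passed with limma-voom (-0.31, adjusted p = 0.021). Cyp1a2_CA against Gls2_CA had 0 genes called with edgeR, 6 with unsummed libraries, 19 with DESeq2 and 10 with limma-voom, and no member in any of them. The causes of these changes were not tested. Of the tested genes 88.1% in Cyp1a2_CA and 90.3% in Gls2_CA had a length and GC value for the offset. Cd34, at 12 to 32 counts per WT library, is the member most limited by depth. No paired analysis was possible because the tumour replicate numbers follow accession order and pair no tumour with a WT liver.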
